A study of Mus musculus with 8 samples.

Results

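The ESCRT machinery (endosomal sorting complexes required for transport) was described here as 31 genes, named by a fixed list of ESCRT-0, ESCRT-I, ESCRT-II and ESCRT-III subunits, the VPS4 ATPases, ALIX and 2 associated deubiquitinases. All 31 were found among 54749 genes with a count column, and all 31 passed the filter on low counts that 21902 genes passed. RNA came from bone marrow cells that the study sorted as LT-HSCs (long-term hematopoietic stem cells). The mice were 4 homozygous asrij floxed mice, numbered 1, 3, 4 and 5 in the titles, and 4 asrij KO mice, numbered 2, 3, 4 and 5. Each mouse gave 1 library. Values given library by library follow this order. For RNA sequencing the study's methods give the gate of these cells as LSK CD150+ CD48+, whereas they give CD48- for LT-HSCs in other assays. The labels give an age of 6 months for all of them, and no mouse received a treatment. Asrij is the mouse gene Ociad1, which encodes a protein of mitochondria and endosomes. The knockout is whole-body, so that every other cell type of the marrow lacked asrij as well. No Cre is named for the floxed mice, and the sample titles call them Wt. Mice of both sexes were used, without a statement of the sex of each library.

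ESCRT proteins act in order on the cytosolic face of the endosome. ESCRT-0 gathers ubiquitinated membrane receptors, ESCRT-I and ESCRT-II deform the membrane, and ESCRT-III filaments cut the neck of the bud, so that receptors enter internal vesicles of the multivesicular body and are degraded in the lysosome. VPS4 takes the filaments apart, and deubiquitinases recover ubiquitin before the bud closes. In hematopoietic stem cells this route limits signaling by receptors such as Kit and Notch1. The same ESCRT-III subunits also act in cell division, nuclear envelope sealing and membrane repair. The study examined endosomal transport in KO bone marrow and HSCs by antibody methods, and reported more cleaved Notch1 (NICD) and less Rab5 protein. The comparison of transcripts addresses whether RNA of the sorting machinery differed in the cells sorted for sequencing. Their gate was not the one given for LT-HSCs in other assays.

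Gene counts summed to between 23412834 and 44874883 per library. Ociad1 was lower in every KO library (11.7 to 19.7 CPM, counts scaled to library size with TMM normalization) than in every floxed library (31.3 to 66.9 CPM). The haemoglobin genes took 2.85% to 7.67% of the floxed counts and 12.2% to 24.3% of the KO counts. The HSC and progenitor marker list summed to 181 to 239 CPM in floxed and 195 to 229 CPM in KO libraries. Within this list Procr stood at 0.142 to 0.962 CPM and Slamf1 at 0.881 to 4.39 CPM over the 8 libraries. Erythroid markers summed to 28130 to 71367 CPM in floxed and 122969 to 295798 CPM in KO, and neutrophil markers to 16290 to 50102 CPM and 24206 to 30561 CPM. The gate selects for Kit and Sca1 (both part of LSK), CD150 and CD48. Kit had 46.8 to 60.2 CPM, Cd48 35.2 to 55.2 CPM and Ly6a, the Sca1 gene, 4.29 to 15.2 CPM. Of these genes Slamf1, which encodes CD150, was thus the lowest in every library, while Kit, Cd48 and Ly6a were present. Procr and Cd34 are not in the gate. Procr was near 0 and Mecom of the same list low (0.498 to 2.86 CPM), whereas Cd34 had 17.5 to 36.7 CPM. Hlf, Meis1, Flt3 (11.3 to 24.4 CPM) and Gata2 (15.5 to 56.9 CPM) of this list were also present. Transcripts of mature blood cells were abundant. The summed B and plasma cell markers ranged from 530 to 595 CPM in floxed and from 523 to 585 CPM in KO, those of T and NK cells from 74.0 to 96.0 CPM and from 55.0 to 56.9 CPM, and those of megakaryocytes and platelets from 34.8 to 87.1 CPM and from 177 to 190 CPM. The B and plasma cell sum joins genes that differed in opposite directions. Of its 9 genes, Jchain (57.2 to 139 CPM in floxed, 28.7 to 40.9 CPM in KO) and Prdm1 were lower at an adjusted p under 0.05. Cd79a (43.9 to 64.3 CPM and 80.2 to 115 CPM) was higher by the same rule. The part of mature blood cell types in the ESCRT values was not tested. In bulk RNA fewer cells of a type cannot be told apart from less RNA per cell. Libraries numbered 4 and 5 stood apart from those numbered 1 to 3 in both genotypes, in a grouping that no label names. Floxed replicate 3 also stood apart, and without it 3875 genes in place of 651 had an adjusted p under 0.05.

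ESCRT transcripts in the KO libraries were close to their floxed levels. None of the 31 genes had an adjusted p under 0.05 (edgeR's quasi-likelihood test with Benjamini-Hochberg adjustment over all genes), where 2.97% of all tested genes did (1.22% higher and 1.75% lower in KO). None passed the stricter rule that adds an absolute log2 fold change above 1.5, which 1.19% of all genes passed. At an unadjusted p under 0.05 there were 5 of 31 genes (2 higher, 3 lower; 16.1%), against 21.8% of all genes. DESeq2's Wald test gave 1 gene, Vps37a (1 of 31), and 11.2% of all genes. The log2 fold changes (KO minus floxed) ran from -0.62 for Vps37a to 0.48 for Mvb12a, with 14 above and 17 below 0. Their median was -0.0096, and that of all tested genes was -0.0058. A change above 0.5 in size on the log2 scale was fitted for 2 of the 31 genes (6.45%) and for 33.7% of all genes. The 95% intervals lay within ±1 for 28 genes and within ±1.5 for all 31. The median standard error on the log2 scale was 0.19 for the 31 genes and 0.283 over all genes. The shares of all genes were not matched for expression level. The interval of Chmp4c rests on a transcript that overlaps another gene and does not bound Chmp4c itself. Without floxed replicate 3, where 17.5% of all genes passed, still none of the 31 did.

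**Figure D1:**
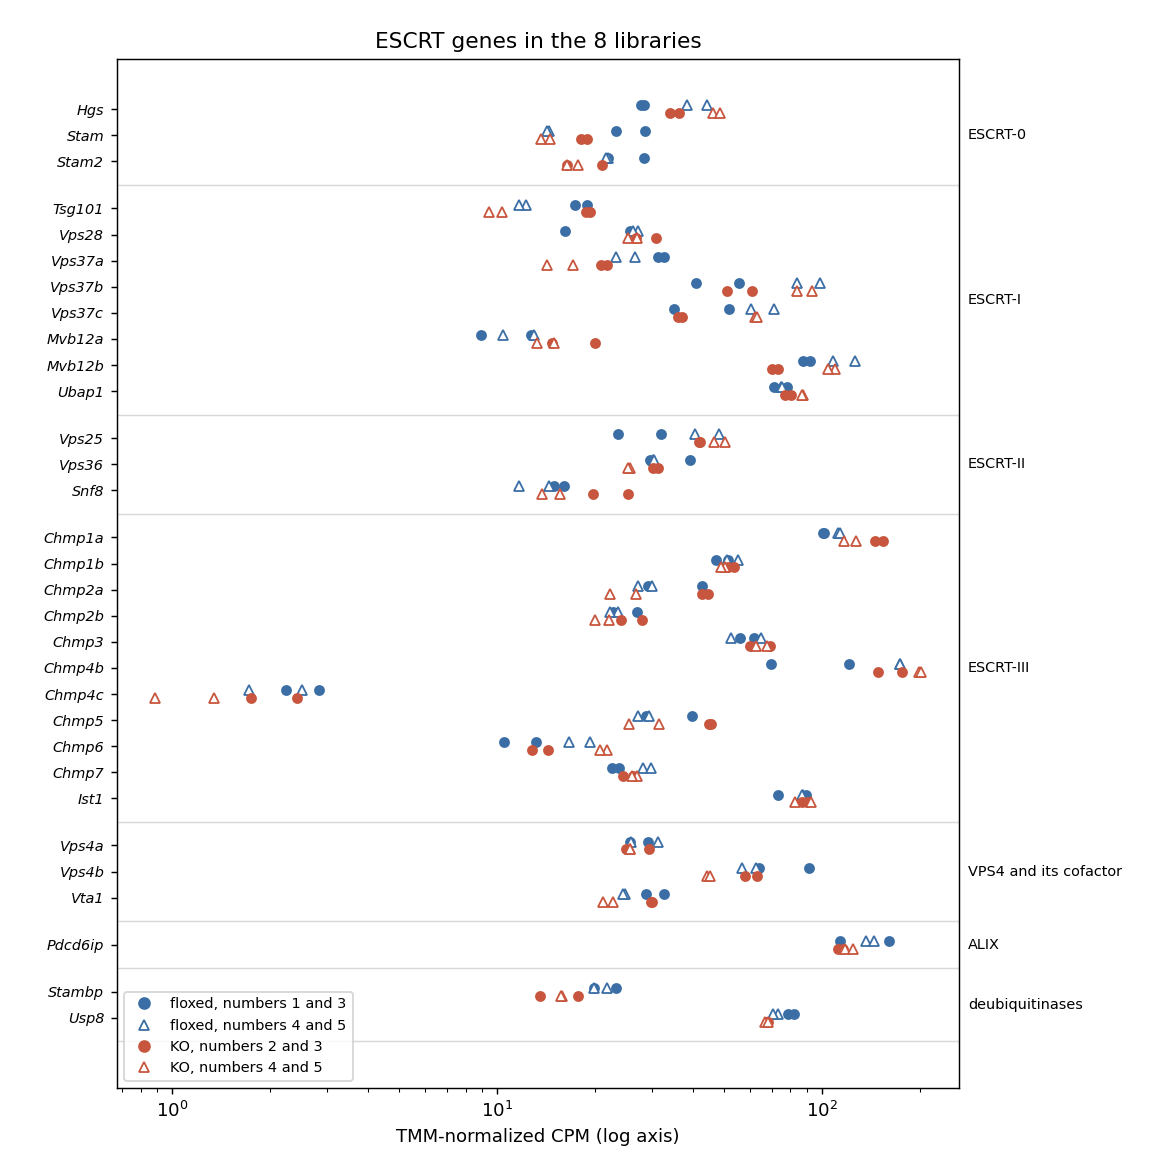
TMM-normalized CPM (log axis) of the 31 ESCRT genes, grouped by complex, in 4 floxed (blue) and 4 KO (red) libraries. Filled circles are numbers 1 to 3 and open triangles numbers 4 and 5, each point 1 library. Floxed and KO points overlap for most genes, Chmp4c lies lowest with 0.887 to 2.84 CPM, and Chmp4b reaches 202 CPM.

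The groups did not overlap for 6 of the 31 genes. Every KO library lay below every floxed library for Stam2, Vps37a, Stambp and Usp8 (4 of 31; 7.66% of all genes) and above for Mvb12a and Chmp1a (2 of 31; 7.10% of all genes). In either direction this held for 19.4% of the 31 genes and 14.8% of all genes. These 6 genes belong to different steps of the pathway: the first complex, the second, the filament and ubiquitin removal. Whether these steps differ from other genes was not tested. For Chmp1a and Stambp the groups overlapped once counts of genes inside them were subtracted, as given below.

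**Figure D2:**
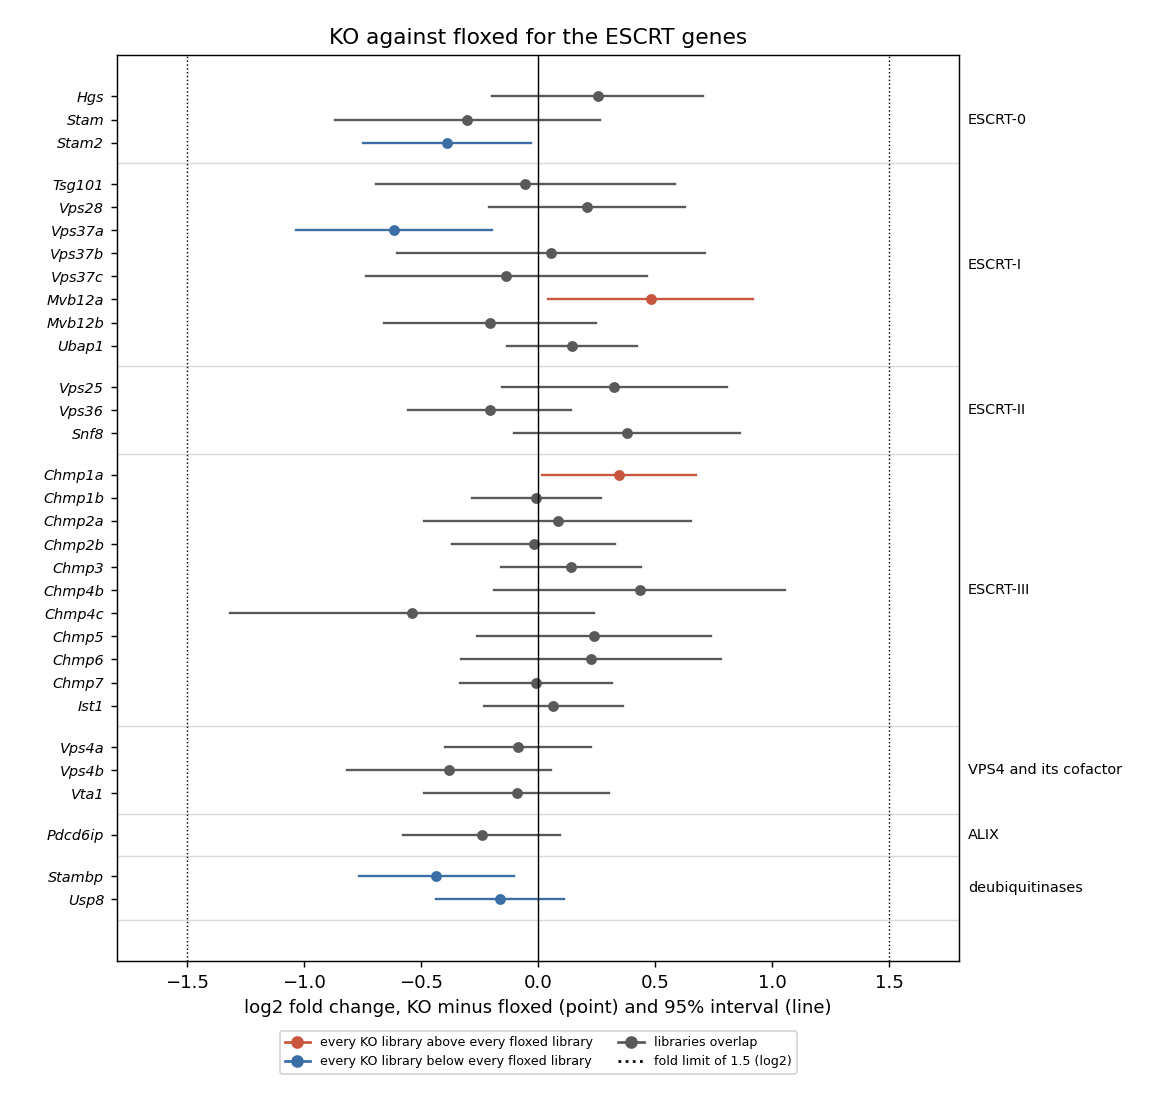
Log2 fold change, KO minus floxed, of each ESCRT gene with its 95% interval, from edgeR's fit over all genes with 4 libraries in each group. Red and blue mark the 6 genes whose libraries do not overlap between groups, grey the others. Every interval stays inside the dotted lines at -1.5 and 1.5.

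ESCRT-0 binds ubiquitinated cargo first. It is built from Hgs (also called Hrs, which binds the endosomal lipid and ubiquitin) and its partners Stam and Stam2. Stam2 on chromosome 2 (52691664 to 52742200, minus strand, GRCm38) had 28.3, 21.9, 22.0 and 21.6 CPM in the floxed libraries and 16.5, 20.99, 16.4 and 17.8 CPM in the KO libraries. All KO values were lower, though floxed replicate 5 and KO replicate 3 lay next to each other. The log2 fold change was -0.39 ± 0.16 (SE, n = 4 each; adjusted p = 0.197, edgeR's quasi-likelihood test). Hgs went the other way, with 28.4, 27.8, 38.6 and 44.1 CPM in floxed and 36.4, 34.2, 46.4 and 48.6 CPM in KO libraries (log2 fold change 0.25 ± 0.20; adjusted p = 0.507 by the same test). Stam had 14.2 to 28.6 CPM in floxed and 13.7 to 18.9 CPM in KO libraries, with a log2 fold change of -0.30, and of -0.07 without floxed replicate 3. The median of the 3 genes was -0.30.

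ESCRT-I joins the cargo complex to the membrane-bending steps. It consists of Tsg101, which binds ubiquitin and the viral and cellular late-domain motifs, Vps28, which links to ESCRT-II, 1 of the Vps37 proteins, and a further subunit from Mvb12a, Mvb12b or Ubap1. Its 8 genes had a median log2 fold change of -0.0011. The largest difference was in Vps37a, on chromosome 8 (40511783 to 40551134, plus strand). Vps37a had 31.3, 32.6, 26.6 and 23.3 CPM in floxed and 21.8, 20.96, 17.2 and 14.3 CPM in KO libraries. The groups were separate by a narrow margin, and within each genotype the libraries numbered 4 and 5 were the lower ones. The means were 28.4 ± 4.30 and 18.6 ± 3.50 CPM (SD, n = 4 each). This was a difference of -0.62 ± 0.19 on the log2 scale (SE; adjusted p = 0.0971, edgeR's quasi-likelihood test). With numbers 4 and 5 against 1 to 3 as a term, the adjusted p of Vps37a was 0.008 by the same test, and 18.5% of all genes then passed. DESeq2 gave Vps37a an adjusted p of 0.0361. The difference was -0.58 within numbers 1 to 3 and -0.67 within numbers 4 and 5.

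For the paralogs of Vps37a the fitted differences were smaller. Vps37b had 41.1 to 98.4 CPM in floxed and 51.0 to 93.1 CPM in KO libraries (log2 fold change 0.05, with a 95% interval from -0.61 to 0.71). Vps37c had 35.0 to 71.0 CPM and 36.0 to 63.0 CPM (log2 fold change -0.14). The differences between paralogs were not tested. Mvb12a, on chromosome 8 (71542930 to 71548026, plus strand), had 12.8, 8.94, 13.01 and 10.5 CPM in floxed and 20.04, 14.7, 13.3 and 15.0 CPM in KO libraries. Its lowest KO library, replicate 4, stood just above the highest floxed library, also replicate 4. Mvb12a had a log2 fold change of 0.48 ± 0.20 (SE, n = 4 each; adjusted p = 0.189, edgeR's quasi-likelihood test). The other genes for this last subunit were nearer 0, with -0.21 for Mvb12b and 0.15 for Ubap1. Ubap1 was among the steadiest members, at 71.5 to 78.2 CPM in floxed and 76.9 to 87.8 CPM in KO libraries. Tsg101 had 11.7 to 19.0 CPM in floxed and 9.42 to 19.4 CPM in KO libraries, with a log2 fold change of -0.05. Vps28 had 16.2 CPM in floxed replicate 3 and 25.3 to 30.96 CPM in the other 7 libraries, with a log2 fold change of 0.21, and of 0.07 without floxed replicate 3.

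ESCRT-II is the bridge between ESCRT-I and the filament and consists of Vps36, Snf8 and 2 copies of Vps25. Its median log2 fold change of 0.32 was the highest of any complex, and none of its 3 genes had an adjusted p under 0.05. Snf8 had 16.1, 15.0, 14.5 and 11.7 CPM in floxed and 25.3, 19.8, 13.7 and 15.7 CPM in KO libraries. The KO values above the floxed range were those of replicates 2 and 3, and replicates 4 and 5 lay inside it (log2 fold change 0.38, 95% interval -0.10 to 0.86). Vps25 had 32.0, 23.6, 48.2 and 40.7 CPM in floxed and 42.2, 41.9, 46.5 and 50.2 CPM in KO libraries (log2 fold change 0.32). Without floxed replicate 3, its lowest library, the log2 fold change of Vps25 was 0.18. Vps36, which binds ubiquitin and lipid, had 29.7 to 39.2 CPM in floxed and 25.3 to 31.2 CPM in KO libraries, with a log2 fold change of -0.21.

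ESCRT-III assembles the cutting filament. Chmp6 starts it, Chmp4b is its main building block, Chmp3 and the Chmp2 proteins cap and remodel it, and the Chmp1 proteins, Chmp5 and Ist1 act late with VPS4. Chmp7 brings the filament to the nuclear envelope. The 11 genes had a median log2 fold change of 0.08, with 7 above and 4 below 0. Chmp4b had 121, 69.7, 174 and 174 CPM in floxed and 176, 149, 199.5 and 202 CPM in KO libraries. Floxed replicate 3 was far below the others. Chmp4b had a log2 fold change of 0.43 (95% interval -0.19 to 1.05; adjusted p = 0.403, edgeR's quasi-likelihood test), and 0.23 without floxed replicate 3. Chmp1a, on chromosome 8 (123204264 to 123212760, minus strand), had 101, 101, 112 and 114 CPM in floxed and 154, 146, 127 and 117 CPM in KO libraries. The KO values were all higher, with the margin small for replicates 4 and 5. Its log2 fold change was 0.35 ± 0.15 (SE, n = 4 each; adjusted p = 0.206 by the same test).

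Of the other ESCRT-III genes, 4 were close to 0. Chmp1b ranged from 47.2 to 55.2 CPM over the 8 libraries (log2 fold change -0.01), Chmp2b from 19.97 to 28.0 CPM (-0.02), Chmp7 from 22.6 to 29.7 CPM (-0.01) and Ist1 from 73.1 to 92.8 CPM (0.07). For Chmp7 the 95% interval was -0.34 to 0.32. Chmp7 lies on chromosome 14, 21.2 kb from Loxl2, a gene with a log2 fold change of 6.41, chosen for mention after its values were seen. Chmp3 (log2 fold change 0.14), Chmp2a (0.08), Chmp5 (0.24) and Chmp6 (0.23) overlapped between genotypes. In KO libraries Chmp5 stood at 45.02 and 45.5 CPM (numbers 2 and 3) and at 31.5 and 25.4 CPM (numbers 4 and 5), so that its spread within a genotype was larger than its difference between genotypes.

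Chmp4c, the ESCRT-III subunit of the abscission checkpoint in dividing cells, was near the limit of detection. Its count came from a long transcript with 25 to 150 counts per library, whose last 11040 bases overlap Snx16 on the opposite strand. The coding transcript of Chmp4c stops before Snx16. It had 0, 4, 2 and 0 counts in floxed and 2, 2, 1 and 4 counts in KO libraries. These values are at or near the 3 counts that an observed 0 allows. A log2 fold change of -0.54 fitted to the long transcript cannot be assigned to Chmp4c, and the Chmp4 signal of these libraries was that of Chmp4b.

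VPS4 disassembles the filament with its cofactor Vta1. Vps4b had 91.0, 64.1, 62.6 and 56.7 CPM in floxed and 58.1, 63.0, 44.2 and 45.3 CPM in KO libraries, a log2 fold change of -0.38 ± 0.20 (SE, n = 4 each; adjusted p = 0.293, edgeR's quasi-likelihood test). KO replicates 2 and 3 lay within the floxed range. Vps4a was at 25.7 to 31.3 CPM in floxed and 24.9 to 29.4 CPM in KO libraries (log2 fold change -0.09), and Vta1 at 24.5 to 32.6 CPM and 21.2 to 30.1 CPM (-0.09). Pdcd6ip encodes ALIX, which recruits Chmp4 proteins beside ESCRT-I. Pdcd6ip had 161, 114, 137 and 145 CPM in floxed and 116, 112, 118 and 125 CPM in KO libraries (log2 fold change -0.24; adjusted p = 0.389 by the same test). Floxed replicate 3 was again the lowest floxed library and lay among the KO values. Without it the log2 fold change of Pdcd6ip was -0.32 (adjusted p = 0.0745 by the same test).

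Counts of both deubiquitinases were lower in every KO library. Stambp (AMSH) cuts ubiquitin chains on sorted receptors. It lies on chromosome 6 (83543211 to 83572427, minus strand) and had 23.3, 19.9, 21.8 and 19.9 CPM in floxed and 13.5, 17.7, 15.9 and 15.7 CPM in KO libraries. Stambp had a log2 fold change of -0.43 ± 0.15 (SE, n = 4 each; adjusted p = 0.130, edgeR's quasi-likelihood test). With library number as a term the adjusted p of Stambp was 0.0397, and the difference was -0.47 within numbers 1 to 3 and -0.40 within numbers 4 and 5. Usp8, which acts on receptors and on ESCRT-0 itself, lies on chromosome 2 (126707360 to 126759290, plus strand). It had 81.9, 78.4, 73.1 and 70.6 CPM in floxed and 68.4, 67.8, 66.7 and 68.4 CPM in KO libraries. The KO libraries of Usp8 were within 2 CPM of each other, and the log2 fold change was -0.16 (adjusted p = 0.476 by the same test).

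Genes that overlap an ESCRT gene bear on several of these values, because the deposited counts behave as counts over the whole genomic span of a transcript on both strands. For 640 pairs of a gene without introns (1000 or more counts in total) inside an intron of another, the outer gene had at least the count of the inner gene in all 8 libraries in 279 of 279 pairs on the same strand and 361 of 361 on opposite strands. The nearest gene without overlap did so for 20.2% of 598 inner genes. Of the 31 genes, 11 shared their span with a gene whose count was at least 5% of their own. For 6 the overlapping gene had at least the same count: Vps37a (Cnot7), Vps37b (Hip1r), Vps25 (Ramp2), Chmp1a (Gm20388), Chmp1b (Gnal) and Usp8 (Usp50). In 2 of these the separate parts could be read from other transcripts. Counts of Cnot7 outside its transcript that stops before Vps37a came to 3.88% to 9.39% of the Vps37a count. The coding transcript of Ramp2 upstream of Vps25 had only 4 to 20 counts per library, so that the larger Ramp2 count spans Vps25 itself.

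Pseudogenes and gene models inside ESCRT genes, chosen after their values were seen, changed more. Rps12-ps9 lies inside Chmp1a and held 18.3% to 54.4% of its count in floxed and 19.6% to 53.3% in KO libraries. After its count was subtracted, Chmp1a had 46.1 to 92.7 CPM in floxed and 71.3 to 102 CPM in KO libraries, and the groups overlapped (log2 fold change 0.27). Gm18537 inside Stambp held 22.9% to 38.0% of its count. Without it Stambp had 12.3 to 16.5 CPM in floxed and 9.97 to 13.7 CPM in KO libraries, which overlapped (log2 fold change -0.32; adjusted p = 0.307, edgeR's quasi-likelihood test). Gm10774 inside Usp8 held 7.53% to 21.05% of the Usp8 count in floxed and 18.1% to 34.9% in KO libraries. Without it Usp8 had 75.8, 72.4, 57.7 and 56.9 CPM in floxed and 46.2, 55.6, 43.4 and 45.04 CPM in KO libraries. Usp8 then had a log2 fold change of -0.47 in place of -0.16 (adjusted p = 0.125 by the same test), and the groups stayed apart. Gm37939 held 60.6% to 75.9% of the Vps37b count. It lies on the plus strand at 124004648 to 124006151, at the 3′ end of Vps37b (124004641 to 124032270, minus strand). As both strands are counted, its count may hold reads of Vps37b itself. Whether any of these inner genes lies in an exon of its ESCRT gene was not tested, so the subtraction may also remove reads of the ESCRT gene. The same subtraction gave -0.14 for Vps37b and -0.05 for Vta1 (Gm16234). None of the 31 genes had an adjusted p under 0.05 after it.

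Levels between genes were compared per kilobase of the counted spliced transcript, as CPM per kb in the floxed libraries. Chmp4b was highest with 88.1 ± 32.7 CPM per kb (SD, n = 4), followed by Chmp3 with 59.0 ± 5.67 and Chmp1a with 50.05 ± 3.20. Stam (4.03 ± 1.41), Stambp (2.53 ± 0.194) and Chmp4c (0.559 ± 0.113) were lowest. Of the 30 neighbouring pairs in this order, only 3 had floxed libraries that did not overlap: Chmp1a above Chmp2a, Stam above Stambp, and Stambp above Chmp4c. After Rps12-ps9 was subtracted, Chmp1a had 32.7 ± 9.30 CPM per kb and overlapped Chmp2a (34.0 ± 7.40), and the value of Chmp4c is that of its long transcript. Among paralogs, Vps37c (20.3 ± 5.67) was above Vps37a (4.46 ± 0.673). Vps37b had 27.7 ± 10.3 CPM per kb, and 8.48 ± 2.24 after subtraction of Gm37939. This subtraction may remove reads of Vps37b itself, so the order of Vps37b and Vps37c was not settled. In the other family, Mvb12b (20.7 ± 3.59) was above Mvb12a (10.6 ± 1.83). Vps4b (15.1 ± 3.37) and Vps4a (12.9 ± 1.24) were within their spread, as were Stam and Stam2 (4.97 ± 0.689). Because the counts include introns, the order depends on the length used. Per kb of genomic span, Chmp1b ranked 1 in place of 11, Chmp3 19 in place of 2 and Mvb12b 26 in place of 9.

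As over all genes, more ESCRT genes differed by library number than by genotype. The grouping by number was known from these same data before it was fitted. Its p-values therefore describe the split and do not test it. In a fit with both terms, 2 of 31 genes passed for genotype, against 18.5% of all genes. In the same fit 15 of 31 genes (48.4%) differed between numbers 4 and 5 and numbers 1 to 3 at an adjusted p under 0.05 (edgeR's quasi-likelihood test), against 30.7% of all genes. Of these, 7 were higher in 4 and 5 (14.5% of all genes): Hgs, Vps37b, Vps37c, Mvb12b, Vps25, Chmp4b and Chmp6. The other 8 were lower (16.3% of all genes): Stam, Tsg101, Vps37a, Snf8, Chmp2a, Chmp5, Vps4b and Vta1. When single libraries were left out, the count ran from 7 to 17 genes, and the share of all genes from 16.9% to 41.9%. There were 9 genes without floxed replicate 1 (30.3% of all genes) and 8 without KO replicate 2 (24.8%). Without floxed replicate 5 there were 7 (16.9%). Without KO replicate 3, 4 or 5 there were also 7 (19.7%, 19.9% and 20.4%). Without floxed replicate 3 or 4 there were 17 (41.9%) and 12 (24.9%).

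Tsg101 and Vps37b stood at the ends of this difference. Among floxed libraries, Tsg101 had 19.0 and 17.3 CPM in numbers 1 and 3 against 12.2 and 11.7 CPM in numbers 4 and 5. Among KO libraries, it had 19.4 and 18.8 CPM in numbers 2 and 3 against 10.4 and 9.42 CPM in numbers 4 and 5. This difference had the same direction in both genotypes, with a log2 difference (4 and 5 minus 1 to 3) of -0.77 ± 0.12 (SE; adjusted p = 0.00198, edgeR's quasi-likelihood test). Vps37b was 41.1 to 61.1 CPM in numbers 1 to 3 and 83.8 to 98.4 CPM in numbers 4 and 5 (0.79 ± 0.14; adjusted p = 0.00307 by the same test). After subtraction of Gm37939, which may also remove reads of Vps37b, the difference of Vps37b was 0.53. This was less than that of Vps37c (0.69) or Chmp6 (0.63). After subtraction of Rps12-ps9 Chmp1a had 0.53 in place of -0.07 (adjusted p = 0.0151 by the same test), and 16 of 31 genes passed. Hgs and Stam, partners in ESCRT-0, differed in opposite directions, by 0.49 and -0.62. Since both genotypes hold 2 libraries on each side, the genotype and the library number can be told apart. The same balance holds the genotype differences of the joint fit near those fitted alone (Vps37a -0.62, Stambp -0.43, Mvb12a 0.48). Their closeness is therefore no check of these differences.

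**Figure D3:**
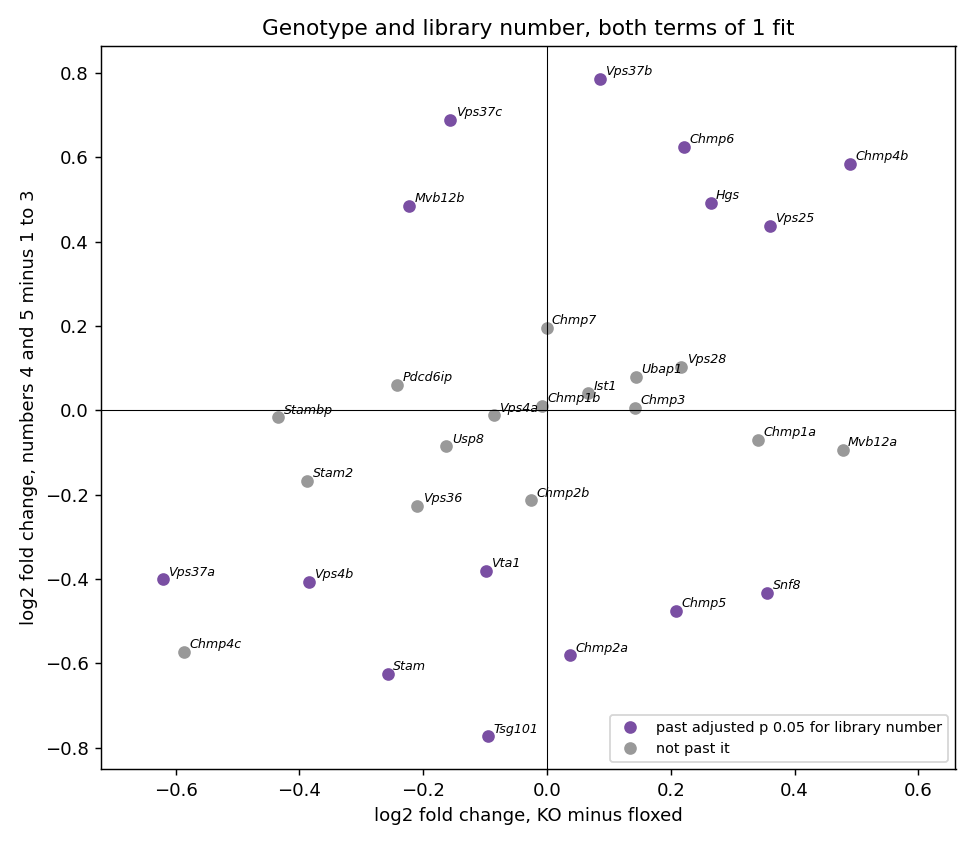
Log2 fold change between genotypes (x axis) and between libraries numbered 4 and 5 and 1 to 3 (y axis) for the 31 ESCRT genes, both from a single fit over 8 libraries. Purple marks the 15 genes past an adjusted p of 0.05 for library number. The y values run from -0.77 for Tsg101 to 0.79 for Vps37b.

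GC content moved with both differences. GC content was that of the spliced transcript. The counts include introns, and GC content of the whole counted span was not measured. The 7 genes higher in numbers 4 and 5 had a median GC content of 57.9%, the 8 lower genes 44.0%, and the other 16 genes 46.8%. Across the 31 genes, which share the same 8 libraries and are not independent replicates, GC content correlated with the number difference with a Pearson r of 0.65 (Spearman rho 0.63). The same values were 0.62 and 0.60 for the genotype difference. Over all 21902 genes Pearson's r was 0.37 for library number and 0.24 for genotype. Among the genes past the threshold for library number, Snf8 and Chmp2a departed from the trend, with GC above 50% and lower values in 4 and 5. The gene of highest GC, Mvb12a (60.6%), had a number difference of -0.09. The part of GC content in the genotype differences was not tested.

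**Figure D4:**
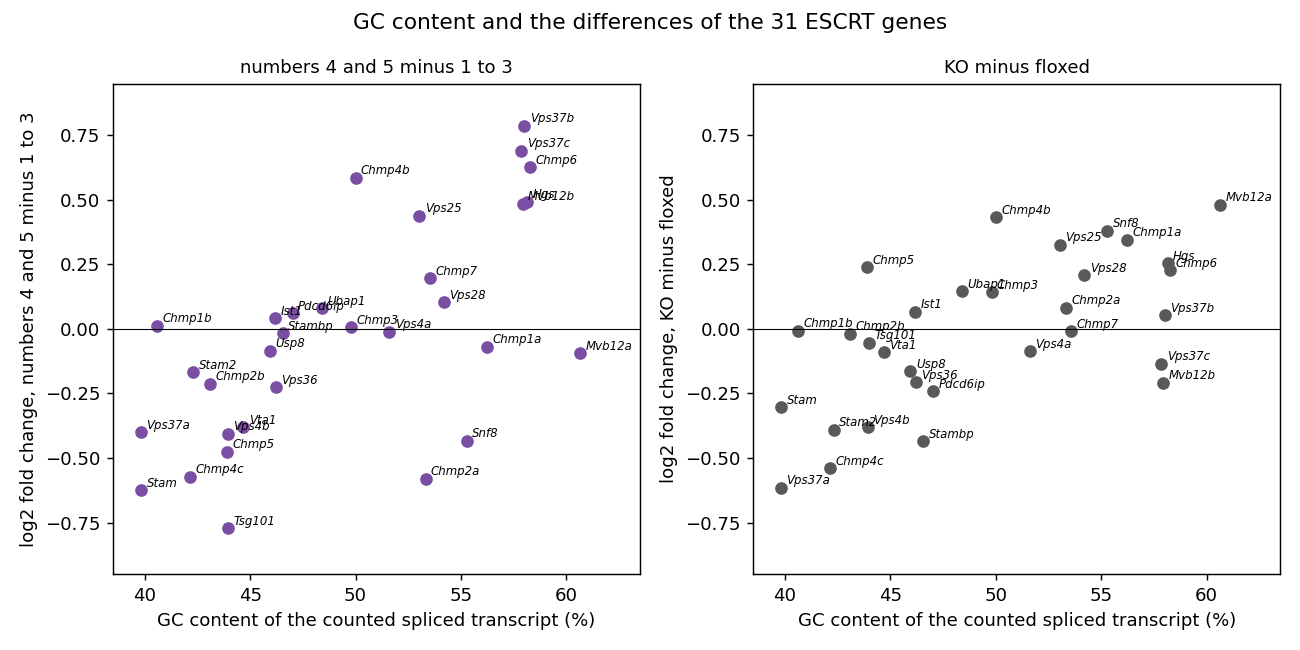
GC content of the spliced transcript, without the introns that the counts include (x axis, %), against log2 fold change for the 31 ESCRT genes. The left panel is between library numbers and the right between genotypes, each point 1 gene. Genes of low GC such as Stam and Vps37a lie below 0 in both panels, and Chmp6 and Hgs lie above 0 in both.

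The 5′ part of the genes was also counted differently by library number. For 15 ESCRT genes a transcript starting with the gene and stopping early gave the share of counts in the 5′ part. This part covered from 16.3% (Vps37b) to 78.3% (Chmp3) of the counted span, so shares are not alike between genes. Counts of genes nested inside were not removed. In 9 of these 15 genes, every library numbered 4 or 5 had a smaller share than every library numbered 1 to 3, and in 0 a larger share. Among 6872 other genes this was so for 18.9% and 5.03%. The median share of the 15 genes was 18.9% and 19.9% in floxed replicates 1 and 3 and 15.4% and 15.6% in KO replicates 2 and 3. In replicates 4 and 5 it was 6.86% and 8.32% in floxed and 6.47% and 7.29% in KO libraries. Hgs went from 23.4% and 28.1% in floxed replicates 1 and 3 to 5.73% and 6.08% in floxed replicates 4 and 5, while its CPM was higher in the latter. The share of Mvb12a, between 56.9% and 62.6% in all libraries, did not follow this. The part of 5′ coverage in the ESCRT values was not tested.

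**Figure D5:**
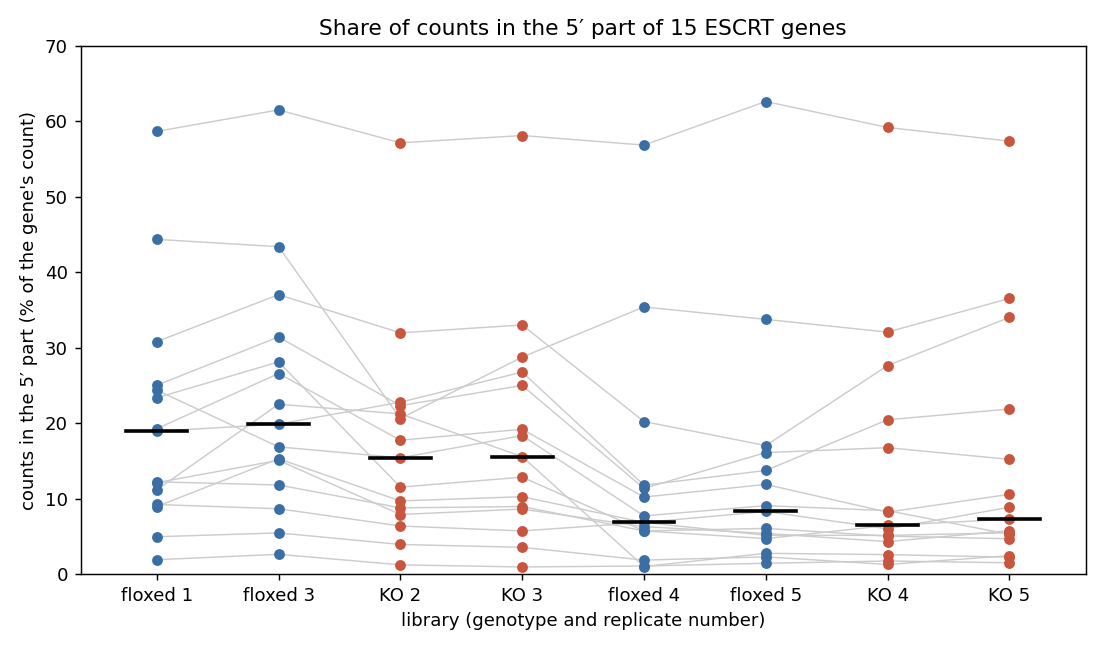
Share of each gene's counts in its 5′ part (y axis, %) for 15 ESCRT genes in 8 libraries, floxed in blue and KO in red, with black bars at the median. Grey lines join the same gene. The medians lie between 15.4% and 19.9% for numbers 1 to 3 and between 6.47% and 8.32% for numbers 4 and 5.

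Other genes of the route were read from lists of 65 genes, of which 62 were tested. An adjusted p under 0.05 with lower values in KO was found for 1 of them (1.75% of all genes) by edgeR's quasi-likelihood test. The median log2 fold change of the 62 genes was -0.14, with 17 above and 45 below 0. Over all tested genes it was -0.0058, with 10860 above and 11042 below 0. The 62 genes share the same 8 libraries, and their direction as a set was not tested. Smurf2, a ubiquitin ligase of signaling receptors, fell from 53.3, 41.4, 41.3 and 46.9 CPM to 25.6, 33.3, 24.8 and 23.8 CPM (log2 fold change -0.77 ± 0.16, SE, n = 4 each; adjusted p = 0.0418, edgeR's quasi-likelihood test). With replicate number as a block in 3 pairs, the adjusted p of Smurf2 was 0.179 by the same test, and 0.222% of all genes passed. When a library was left out, 0 of the 62 genes passed in 7 of 8 fits, where 0.274% to 1.17% of all genes did. Without floxed replicate 3, 12 of the 62 passed, and 17.5% of all genes.

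In the ligase list 12 of 14 tested genes had a log2 fold change below 0 (11042 of all 21902 genes), of which only Smurf2 passed. Cbl, a ligase that tags Kit, was named after its values were seen, since its adjusted p of 0.0501 lay just outside the threshold. It had 450, 316, 277 and 304 CPM in floxed and 174, 211, 184 and 187 CPM in KO libraries. In the lists without a passing gene the largest differences were -0.96 for the Ubap1 paralog Ubap1l (0.156 to 1.19 CPM over all libraries), -0.86 for the endosomal adaptor Wdfy1, -0.58 for Cep55, which recruits ALIX and ESCRT-I to the midbody, and -0.86 for the endosomal lipid-binding protein Zfyve16. Their adjusted p-values were 0.367, 0.0516, 0.075 and 0.0868 (edgeR's quasi-likelihood test). Notch1 was also named after its values were seen. The study followed its cleaved protein, which was increased in KO bone marrow and HSCs, a measure unlike RNA. Notch1 RNA had 148, 93.3, 140 and 188 CPM in floxed and 80.6, 71.7, 110 and 118 CPM in KO libraries. Its log2 fold change was -0.58 (adjusted p = 0.202 by the same test).

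Promoters were searched for the E-box CACGTG, the core of the longer element that TFEB binds at lysosomal genes. RefSeq promoters of GRCm38.p6 were matched for 23 of the 31 genes, and the 250 bases before the start were read on both strands (the motif is its own reverse complement). The motif was found in 1 of these 23 genes, Pdcd6ip, and in 6.02% of all 32851 promoters. With GT before and AC after the core, it was found in 0 of the 23 and in 0.240% of all promoters. The Pdcd6ip promoter is shown because it is the single match among the ESCRT genes, with the motif in capitals and its first base 38 bases before the start (chr9:113708260-113708509, minus strand, 5′ to 3′).
Pdcd6ip: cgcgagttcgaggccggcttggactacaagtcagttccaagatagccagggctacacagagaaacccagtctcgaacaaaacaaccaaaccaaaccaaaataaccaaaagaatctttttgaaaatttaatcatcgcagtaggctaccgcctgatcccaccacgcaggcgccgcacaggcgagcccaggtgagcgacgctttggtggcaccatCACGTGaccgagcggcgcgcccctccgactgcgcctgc
Pdcd6ip itself had a log2 fold change of -0.24, with overlapping groups, and its level before division by length was 139 ± 19.9 CPM in floxed libraries (SD, n = 4), within the spread of Chmp4b (135 ± 49.99).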

How the data were processed

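RNA of cells sorted as LT-HSCs was sequenced from 4 asrij floxed and 4 asrij KO mice. The authors trimmed reads with Trim Galore, checked them with FastQC, aligned them with Bowtie2 to reference transcripts of GRCm38/mm10 and deposited whole-number counts for 138930 Ensembl transcripts per library, not normalized. The counting tool, strand and versions are not given in the sources used here. In 7 of the 8 files the deposited counts are separated by tabs under a comma-separated name, and were listed as another unit for that reason alone.

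Transcripts were mapped with GENCODE M21 (GRCm38). A gene's count is that of its transcript with the highest total. Hgs has 2 gene identifiers with the same counts and was used once. Counts were filtered (filterByExpr by genotype), TMM-scaled and tested by edgeR's glmQLFTest (version 4.0.16, under R 4.3.3). P-values were adjusted by Benjamini-Hochberg over all genes. DESeq2 1.42.0 and limma 3.58.1 were alternatives. On simulated data edgeR's fits (genotype alone, with library number and with the replicate block), limma-voom and DESeq2 were tested. The other alternatives were not. Depth was 23412834 to 44874883 gene counts per library, and libraries of a genotype differed beyond counting noise.

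Members, lists and tests were chosen with earlier results of these data known. Named were all members, Ociad1, passing genes of each list or otherwise its largest difference, and overlapping genes of higher count. Numbers 3, 4 and 5 occur in both genotypes in the titles, for different mice. Deviations of same-numbered libraries correlated at 0.37, 0.39 and 0.58 (mean 0.449), no more than those of other-numbered libraries that were both in 1 to 3 or both in 4 and 5 (mean 0.458). Subtracting nested genes and the check of counts in introns were chosen after seeing the data. Sex was not analysed here. The result for 1 gene of the pathway lists is not reported here.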

Additional observations from a re-analysis of the deposited data

Results flagged for a closer look

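In 66 groups of 4 libraries (31 ESCRT genes, Ociad1 and Smurf2 in each genotype), 4 held a library far from the other 3 by Dixon's test, and chance flags about 1 in 20 groups, or 3.3 of 66. All 4 were floxed. Stam2 had 28.3 CPM in floxed replicate 1 against 21.6 to 22.0 CPM in the other floxed libraries. Vps36 had 39.2 CPM in the same library against 29.7 to 30.5 CPM, and Chmp5 had 39.8 CPM there against 27.1 to 29.3 CPM. Vps28 had 16.2 CPM in floxed replicate 3 against 25.7 to 27.3 CPM. Without floxed replicate 1 or any other library, none of these genes had an adjusted p under 0.05 by edgeR's quasi-likelihood test.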

How the results depend on the processing

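The number of ESCRT genes with an adjusted p under 0.05 was 0 in edgeR's fit and in all alternatives run except DESeq2 (1, Vps37a) and library number as a term (2, Vps37a and Stambp). At an unadjusted p under 0.05 it was 5. None of the 31 passed both thresholds in any of them. The median log2 fold change of the 31 genes stayed between -0.036 and 0.040, and 23 genes had the same sign in every alternative. The count over all genes was 651 in edgeR's fit, 2446 with DESeq2, 4059 with library number as a term and 61 to 3875 with each library left out, the highest without floxed replicate 3. With both thresholds the same counts were 261, 503, 521 and 51 to 857. With a block for replicate number in the 3 pairs, 48 genes passed (44 with both thresholds), among them 0 ESCRT genes and 0 of the other genes of the pathway. The block changed no call of an ESCRT gene or of Ociad1. The 2 calls among the other genes of the pathway became 4 with upper-quartile scaling, with a CPM of at least 1 in 4 libraries and without haemoglobin genes, 7 with DESeq2, 15 with library number as a term, and 1 without a filter and with sums over transcripts. They numbered 0 in 7 of the 8 fits that left out a library (0.274% to 1.17% of all genes) and 12 without floxed replicate 3 (17.5% of all genes). The log2 fold change of Ociad1 was between -1.75 and -1.29 with a library left out, and its adjusted p was 0.0759, 0.0825, 0.0881 and 0.0871 without floxed replicate 1, KO replicate 2, KO replicate 4 and KO replicate 5. The ESCRT genes that differed by library number counted 7 to 17 in these fits. The cause of these shifts was not tested.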
